A study of Mus musculus with 18 samples.

Results

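The genes described here are the voltage-gated sodium and calcium channel genes and the potassium channel genes of the embryonic mouse spinal cord. They are the named genes whose symbols begin with Kcn, with Scn and a digit, or with Cacn, without the inward rectifiers Kcnj8 and Kcnj10. This gave 131 of the 23861 genes tested, of which 92 were potassium, 14 sodium and 25 calcium channel genes, auxiliary subunits included. Each of the 131 was read by 1 probe set. Their expression was measured on microarrays in cells of embryos carrying an Aldh1l1-GFP transgene on a Swiss-Webster background, in which green fluorescent protein marks cells that use the Aldh1l1 promoter, active in radial glia and astrocytes. Cords were dissociated with papain and flow sorted. GFP-positive cells, called GFP cells below, were compared at each age with all live cells, sorted from cords of the same transgenic line. All live cells include the GFP cells and every other cell type that survived dissociation, and both sorts carry the transgene.

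The GFP cells gave 3 arrays of E13.5, 2 of E14.5 and 3 of a late age that joins E17.5 (2 arrays) with E18.5 (1 array). Each age of all live cells had 3 arrays, again with 2 of E17.5 and 1 of E18.5 in the late group. The E18.5 array is replicate 3 of each late group. The titles call the arrays of a group biological replicates, but the labels name no litter or animal. The p-values thus rest on the spread between these arrays alone, and how independent the replicates were is not stated. A further array that its own title calls mislabeled was left out. Arrays within a group correlated at 0.985 to 0.994 over all genes.

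Voltage-gated channels open when the membrane is depolarised. Sodium channels carry the rising phase of the action potential, calcium channels couple depolarisation to transmitter release and gene regulation, and most potassium channels bring the membrane back towards rest. Astrocytes do not fire action potentials; they hold a strongly negative membrane potential through inward-rectifying and two-pore potassium channels and take up the potassium that active neurons release. Pore-forming alpha subunits of these channels assemble with auxiliary subunits that set their gating and their number at the cell surface.

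The sorts were compared with their labels through marker lists. Of 14 measured neuronal markers, which included Tubb3, Dcx and Snap25, all 14 were lower in GFP cells than in all live cells at every age. Their mean level per array ran from 9.35 to 9.42 in GFP cells and from 10.67 to 10.77 in all live cells at E13.5, and from 8.20 to 8.35 against 9.58 to 9.77 at the late age. In GFP cells, 1 of the 14 at E13.5, 2 at E14.5 and 4 late lay below the median of all array values, so most neuronal markers were still read above it. Of 15 astrocyte markers, 10 were higher and 1 was lower in GFP cells at E13.5, and 12 were higher at each later age. Aldh1l1, whose promoter drives the sorted GFP, is in this list and was higher at every age, so it is no independent check. Microglial markers were lower in GFP cells, 10 of 12 at E13.5 and 12 of 12 at the later ages. At the late age their mean ran from 7.28 to 7.36 in GFP cells and from 9.36 to 10.16 in all live cells, with the E18.5 array the highest. Of 10 radial glia markers, 8 were higher in GFP cells at E13.5, 8 at E14.5 and 4 late. Meningeal markers were lower for 7, 5 and 4 of 10 at the 3 ages and higher for 1, 1 and 0. Erythroid markers were lower for 6, 7 and 3 of 10. Mural markers were mixed early, with 3 higher and 2 lower at E13.5 and 2 higher and 3 lower at E14.5. Late, 9 of 12 oligodendrocyte-lineage, 9 of 10 endothelial and 5 of 10 mural markers were lower in GFP cells and none was higher. Their late means per array ran from 8.12 to 8.27, 7.10 to 7.11 and 7.93 to 8.10 in GFP cells, against 9.04 to 9.43, 8.05 to 8.16 and 8.80 to 9.33 in all live cells. In sorted bulk RNA, fewer cells of a type and less RNA per cell cannot be told apart.

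At every age more channel genes were lower than higher in GFP cells. Values are the deposited log2 levels, on which a difference of 1 is a 2-fold change, and a gene was called where limma's adjusted p was under 0.05 over all genes. At E13.5, 8 members were higher and 34 lower, or 6.11% and 26.0% of the 131, where 11.1% of all genes were higher and 8.01% lower. At E14.5, 7 were higher and 40 lower (5.34% and 30.5%), against 10.3% and 8.22% of all genes. Late, 6 were higher and 19 lower, together 19.1% of the 131 where 9.28% of all genes were called, 4.6% higher and 4.68% lower. The share of lower members was above that of all genes at each age, and the share of higher members was below it at E13.5 and E14.5 and near it at the late age. Groups did not overlap, with GFP cells lower, for 57, 61 and 31 members at E13.5, E14.5 and late (43.5%, 46.6% and 23.7%, against 21.6%, 24.6% and 8.42% of all genes), and with GFP cells higher for 10, 13 and 9 (18.4%, 21.3% and 13.1% of all genes). The members' median difference was -0.13 at E13.5, -0.14 at E14.5 and -0.03 late, where the median of all genes was -0.04, -0.03 and 0.04. The median of the neuronal markers was -1.33, -1.81 and -1.52 at the same ages, and the part that neuronal RNA played in the channel differences was not tested.

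In all, 58 members were called at 1 age or more and 19 at all 3 ages, 15 of them lower and 4 higher each time. No member was higher at 1 age and lower at another. The same counts over ages were not made for all genes, so they describe the members alone and cannot be set against a background. Many members were dim: 57 of the 131 had a mean below 7.78, the median of all array values, in all 6 groups. At the late age, 16 members rather than 25 were called without the 2 E18.5 arrays. That fit also has fewer arrays in each late group, so the age of the arrays and their number cannot be told apart.

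**Figure D1:**
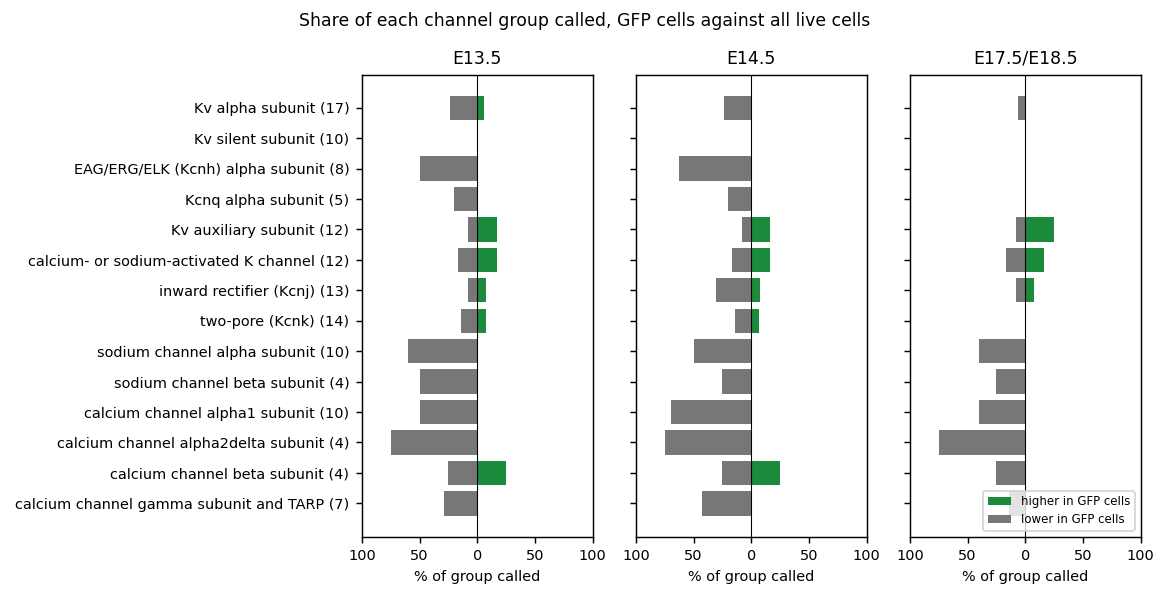
Share of each channel group called higher (green, to the right) or lower (grey, to the left) in GFP cells than in all live cells, in percent of the group's genes, at each age; the number of genes in each group is in brackets and the single gene Kcnrg is not drawn. Of the 4 alpha2delta genes 3 were lower at every age, while the 10 silent Kv genes gave no call.

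Among the 10 genes of sodium channel alpha subunits, 6 were lower in GFP cells at E13.5, 5 at E14.5 and 4 late, and none was higher. The 4 that were lower at all ages were Scn1a, Scn2a1 (now Scn2a), Scn3a and Scn9a, which encode Nav1.1, Nav1.2, Nav1.3 and Nav1.7. Scn2a1, whose channel supports firing in early axons, read 7.23, 6.56 and 7.42 in GFP cells and 9.82, 10.35 and 9.78 in all live cells at E13.5. The 3 GFP arrays lay more than 2 log2 units below the lowest array of all live cells. The difference was -2.92 ± 0.30 (limma SE here and below; adjusted p = 2.13e-06), the largest of any channel gene at that age. At E14.5 Scn2a1 read 8.73 and 8.12 in GFP cells and 10.29, 10.22 and 10.25 in all live cells, a difference of -1.82 ± 0.33 (adjusted p = 0.000653). At the late age it read 7.69, 6.43 and 7.16 against 8.94, 8.99 and 9.82, a difference of -2.16 ± 0.30 (adjusted p = 0.00013). The groups did not overlap at any age.

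Scn9a, a channel best known from sensory and sympathetic neurons, read 8.12, 8.25 and 8.001 in GFP cells and 10.29, 10.44 and 10.42 in all live cells at E13.5. Its difference was -2.26 ± 0.29 there (adjusted p = 2.14e-05), -2.14 ± 0.32 at E14.5 (adjusted p = 0.000105) and -1.37 ± 0.29 late (adjusted p = 0.00485). Late arrays of Scn9a spread widely, from 7.10 to 8.39 in GFP cells and from 8.44 to 9.85 in all live cells, and the groups came close without overlap. Of 11 sensory ganglion and Schwann cell markers, 4 were lower in GFP cells at E13.5, 2 at E14.5 and 3 late. Their mean per array at E13.5 ran from 7.49 to 7.55 in GFP cells and from 7.85 to 7.88 in all live cells, and its part in the Scn9a values was not tested.

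Scn3a, the sodium channel of the embryonic and neonatal nervous system, read 8.70, 8.96 and 8.56 in GFP cells and 10.04, 10.09 and 9.96 in all live cells at E13.5. Late, Scn3a read 7.33, 7.29 and 7.003 against 9.18, 8.50 and 9.06. Both sorts were lower late than at E13.5, and GFP cells lay below all live cells at each age. The differences between the sorts were -1.29 ± 0.15, -1.72 ± 0.16 and -1.71 ± 0.15 at E13.5, E14.5 and the late age (adjusted p = 6.97e-06, 9.92e-07 and 9.46e-07). Scn1a, which in the mature cord serves fast-firing interneurons and nodes of Ranvier, differed by -1.31 ± 0.16, -1.80 ± 0.18 and -1.38 ± 0.16 (adjusted p = 1.18e-05, 1.19e-06 and 1.96e-05). Scn1a lay between 6.19 and 7.18 in every GFP array, below the median of all array values, and between 7.51 and 8.53 in all live cells.

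Of the remaining alpha subunits, Scn8a (Nav1.6, the main channel of mature axon initial segments) differed by -0.35 at E13.5 (adjusted p = 0.0484), -0.08 at E14.5 (adjusted p = 0.754) and -0.17 late (adjusted p = 0.483). Its single call was lost in 12 of 17 fits that left out 1 array (adjusted p from 0.0527 to 0.196). Scn7a, the sodium-sensing channel Nax, was lower by 0.30 at E13.5 and by 0.41 at E14.5 but read 5.99 or less in every array. The Scn7a call was lost at E13.5 without GFP replicate 2 or 3 or all-live replicate 1 or 2 (adjusted p from 0.0616 to 0.185), and at E14.5 without either GFP array or all-live replicate 1 (from 0.053 to 0.0997). Scn4a, Scn10a and Scn11a were not called at any age. Among the 4 beta subunit genes, whose products bind the alpha subunit and act in cell adhesion, Scn3b was lower at all ages and Scn2b at E13.5. Scn2b differed by -0.34 ± 0.10 there (adjusted p = 0.0306), a call lost without GFP replicate 1 or 3 or all-live replicate 1 or 3 (adjusted p from 0.0657 to 0.145). Scn3b read 7.86, 7.94 and 8.01 in GFP cells and 9.04, 9.31 and 9.34 in all live cells at E13.5 (difference -1.29 ± 0.12, adjusted p = 8.87e-07). The Scn3b difference was -1.55 ± 0.14 at E14.5 (adjusted p = 4.02e-07) and -0.62 ± 0.12 late (adjusted p = 0.003).

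**Figure D2:**
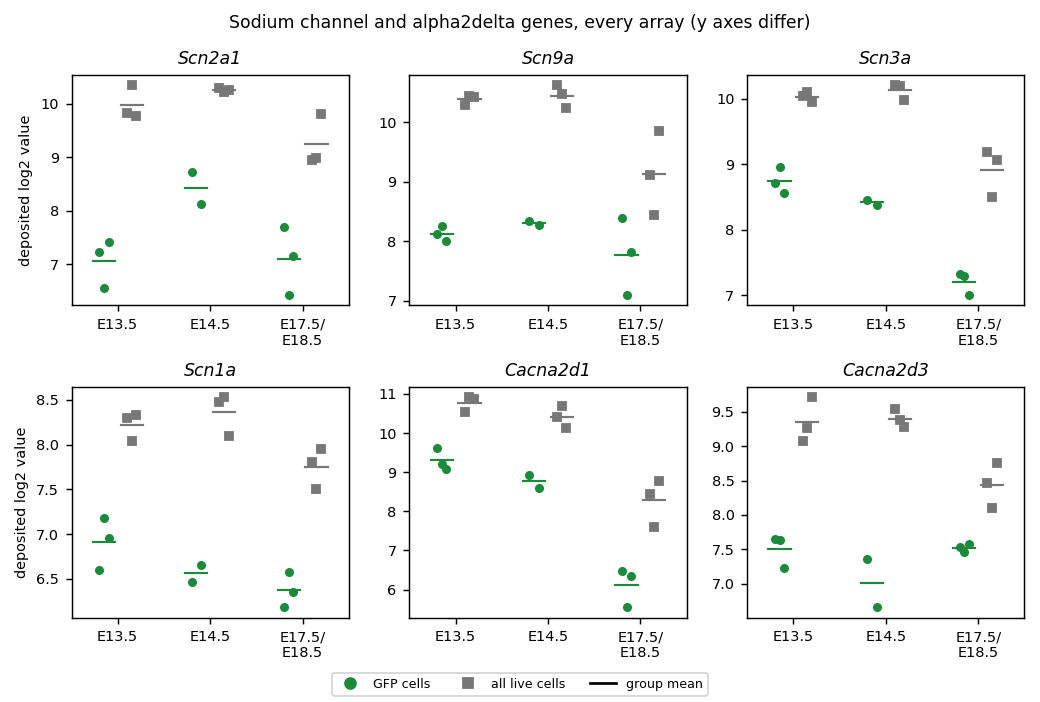
Deposited log2 value of each array (points) and the group mean (lines) for 4 sodium channel alpha subunit genes and 2 alpha2delta genes, in GFP cells (green circles) and all live cells (grey squares) at each age; the y axes differ and do not start at 0. GFP arrays lie below all live arrays in every panel and at every age, and Scn3a and Cacna2d1 are lower in both sorts at the late age.

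The calcium channel groups showed the same direction with 1 exception. Of 10 alpha1 genes, which encode the pores, 5 were lower at E13.5, 7 at E14.5 and 4 late. Cacna1b, the N-type channel of presynaptic terminals, read 7.69, 7.57 and 7.69 in GFP cells and 8.49, 8.57 and 8.84 in all live cells at E13.5. Its difference was -0.99 ± 0.11 (adjusted p = 8.38e-06), -1.42 ± 0.13 at E14.5 (adjusted p = 5.42e-07) and -0.52 ± 0.11 late (adjusted p = 0.00717). The R-type gene Cacna1e differed by -0.64 ± 0.15, -1.14 ± 0.17 and -0.96 ± 0.15 (adjusted p = 0.00498, 8.07e-05 and 0.000393). The L-type gene Cacna1c differed by -0.43, -0.53 and -0.49 and was called each time. The P/Q-type gene Cacna1a was lower at E13.5 (-0.42 ± 0.09, adjusted p = 0.0019) and E14.5 (-0.53 ± 0.10, adjusted p = 0.000557), and differed by -0.25 late (adjusted p = 0.0885). The T-type gene Cacna1g was called at E14.5 alone (-0.57 ± 0.11, adjusted p = 0.00118), with -0.17 at E13.5 and -0.02 late; whether these differences differ from each other was not tested.

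The alpha2delta subunits are extracellular proteins anchored to the membrane that bring calcium channels to the cell surface and take part in synapse formation. Of their 4 genes, 3 were lower in GFP cells at every age, with a median of -1.21, -1.35 and -0.70 over the 4. Cacna2d1, whose product binds gabapentin, read 9.63, 9.20 and 9.08 in GFP cells and 10.53, 10.91 and 10.88 in all live cells at E13.5, a difference of -1.47 ± 0.27 (adjusted p = 0.000761). Late, Cacna2d1 read 6.46, 5.55 and 6.34 against 8.45, 7.61 and 8.78, a difference of -2.16 ± 0.27 (adjusted p = 4.71e-05). The groups were apart at each age, and every late GFP array was more than 2 units below every earlier GFP array. Cacna2d3 read 7.65, 7.63 and 7.22 against 9.08, 9.26 and 9.71 at E13.5, a difference of -1.85 ± 0.19 (adjusted p = 2.57e-06). Its difference was -2.39 ± 0.21 at E14.5 (adjusted p = 4.94e-07) and -0.92 ± 0.19 late (adjusted p = 0.00479). Cacna2d2 differed by -0.94, -1.06 and -0.48 with a call at each age; without the E18.5 arrays the late call was lost (adjusted p = 0.0521). Cacna2d4 differed by 0.01, 0.16 and -0.01 and gave no call.

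The bases before the annotated starts of these 3 genes are shown because the 3 fell on the same side at every age, together with those of Kcnn3, the potassium channel gene with the largest positive difference at E13.5. They are the 250 bases upstream of the start in RefSeq on GRCm38.p6, printed 5′ to 3′ on the gene's strand, and each of these genes has 1 start in that table. Capitals mark the letters GGGCGG (a GC box) on either strand.
Cacna2d1 (chr5:15934441-15934690, plus strand): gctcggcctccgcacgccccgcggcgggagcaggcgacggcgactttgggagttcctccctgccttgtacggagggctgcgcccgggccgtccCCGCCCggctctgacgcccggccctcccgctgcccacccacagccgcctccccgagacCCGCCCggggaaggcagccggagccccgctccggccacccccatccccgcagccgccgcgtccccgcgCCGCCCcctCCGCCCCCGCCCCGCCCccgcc
Cacna2d2 (chr9:107399630-107399879, plus strand): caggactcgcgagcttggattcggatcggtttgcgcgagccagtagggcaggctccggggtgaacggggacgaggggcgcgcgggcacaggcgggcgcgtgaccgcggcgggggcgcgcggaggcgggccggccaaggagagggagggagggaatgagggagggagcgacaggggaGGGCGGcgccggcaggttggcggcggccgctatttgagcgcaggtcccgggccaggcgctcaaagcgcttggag
Cacna2d3 (chr14:29721865-29722114, minus strand): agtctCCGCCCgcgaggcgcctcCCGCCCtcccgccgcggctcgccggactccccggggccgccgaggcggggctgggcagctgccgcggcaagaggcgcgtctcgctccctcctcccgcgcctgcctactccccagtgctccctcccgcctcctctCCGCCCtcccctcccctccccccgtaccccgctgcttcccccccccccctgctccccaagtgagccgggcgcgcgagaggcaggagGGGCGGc
Kcnn3 (chr3:89519914-89520163, plus strand): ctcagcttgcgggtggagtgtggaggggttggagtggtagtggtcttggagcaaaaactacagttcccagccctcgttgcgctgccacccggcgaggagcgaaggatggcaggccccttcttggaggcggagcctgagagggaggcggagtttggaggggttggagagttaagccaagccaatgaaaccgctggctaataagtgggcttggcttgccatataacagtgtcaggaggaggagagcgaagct

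The 3 alpha2delta stretches were rich in G and C, at 82.4% for Cacna2d1, 74.4% for Cacna2d2 and 80.0% for Cacna2d3, with 36, 34 and 30 CG dinucleotides. The Kcnn3 stretch had 58.8% and 10. The median over all 32851 promoter windows of the table was 52.4% with 6 CG dinucleotides, and over the 132 windows of the 96 members found there it was 58.0% with 8. The GC box letters occurred 6 times before Cacna2d1, 1 time before Cacna2d2, 4 times before Cacna2d3 and not before Kcnn3. Over windows of 300 bases (250 before and 50 after the start), they were in 45.5% of the members' windows and 35.7% of all windows. The G and C content of these windows varied on both sides. Among members lower in GFP cells at E13.5 it was 47.3% for Scn1a and 72.3% for Cacna1b. Among members higher there it was 57.7% for Kcnn3 and 79.0% for Kcnmb4. The left letters of the RE1 element bound by the neuronal repressor REST, CAGCACC, were in 7.58% and 7.14%, and its right letters, GGACAG, in 25.0% and 22.2%, on either strand. A SOX motif, ACAATGG, was in 1.52% of the members' windows and 3.66% of all. Of the 38 windows of members lower in GFP cells at E13.5, the GC box letters were in 44.7%, CAGCACC in 5.26% and GGACAG in 5.26%. Of the 17 windows of members higher there, they were in 41.2%, 0.0% and 35.3%. These windows come from 27 and 8 genes, and the shares were not compared by a test. All of these are matches of letters and show no binding.

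The calcium channel beta subunits bind the pore inside the cell and set its trafficking. Of their 4 genes, Cacnb4 was lower in GFP cells at each age and Cacnb2 was higher at E13.5 and E14.5. Cacnb2 read 9.03, 9.11 and 9.19 in GFP cells and 8.26, 8.31 and 8.31 in all live cells at E13.5, a difference of 0.82 ± 0.12 (adjusted p = 0.000121). It read 9.21 and 9.17 against 8.53, 8.68 and 8.62 at E14.5 (0.58 ± 0.14, adjusted p = 0.00569), and this call was lost without GFP replicate 1 (adjusted p = 0.0517). At the late age the groups overlapped, with 9.24, 9.06 and 9.09 against 9.47, 8.84 and 8.89 (0.06, adjusted p = 0.834). GFP arrays of Cacnb2 read 9.03 to 9.24 over the 3 ages, while the late all-live arrays were above those of E13.5. Cacnb4, the subunit of many neuronal channels, differed by -0.82 ± 0.14, -1.24 ± 0.16 and -0.51 ± 0.14 (adjusted p = 0.000523, 2.3e-05 and 0.0339). Its late call was lost without GFP replicate 1 or 2, or without all-live replicate 1 or 3 (adjusted p from 0.0764 to 0.15).

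In the gamma subunit family, several of whose members are TARPs that traffic AMPA-type glutamate receptors, Cacng2 (stargazin) stood lowest. It read 7.77, 7.65 and 7.51 in GFP cells and 9.38, 9.05 and 9.63 in all live cells at E13.5, a difference of -1.71 ± 0.16 (adjusted p = 6.39e-07). The difference was -1.95 ± 0.18 at E14.5 (adjusted p = 5.11e-07) and -0.63 ± 0.16 late (adjusted p = 0.0169). The late Cacng2 call was lost without GFP replicate 3 or all-live replicate 3 (adjusted p = 0.065 and 0.0731), and without both E18.5 arrays the difference was -0.41 (adjusted p = 0.166). Cacng4, a TARP found in glia, differed by 0.23, 0.38 and 0.08 (adjusted p = 0.202, 0.0561 and 0.774). All 17 arrays read Cacng4 between 9.17 and 9.75, and the groups did not differ beyond the threshold. Cacng5 was lower at E14.5 (-0.32 ± 0.09, adjusted p = 0.0146), a call lost without either GFP array (adjusted p = 0.0857 and 0.0858).

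**Figure D3:**
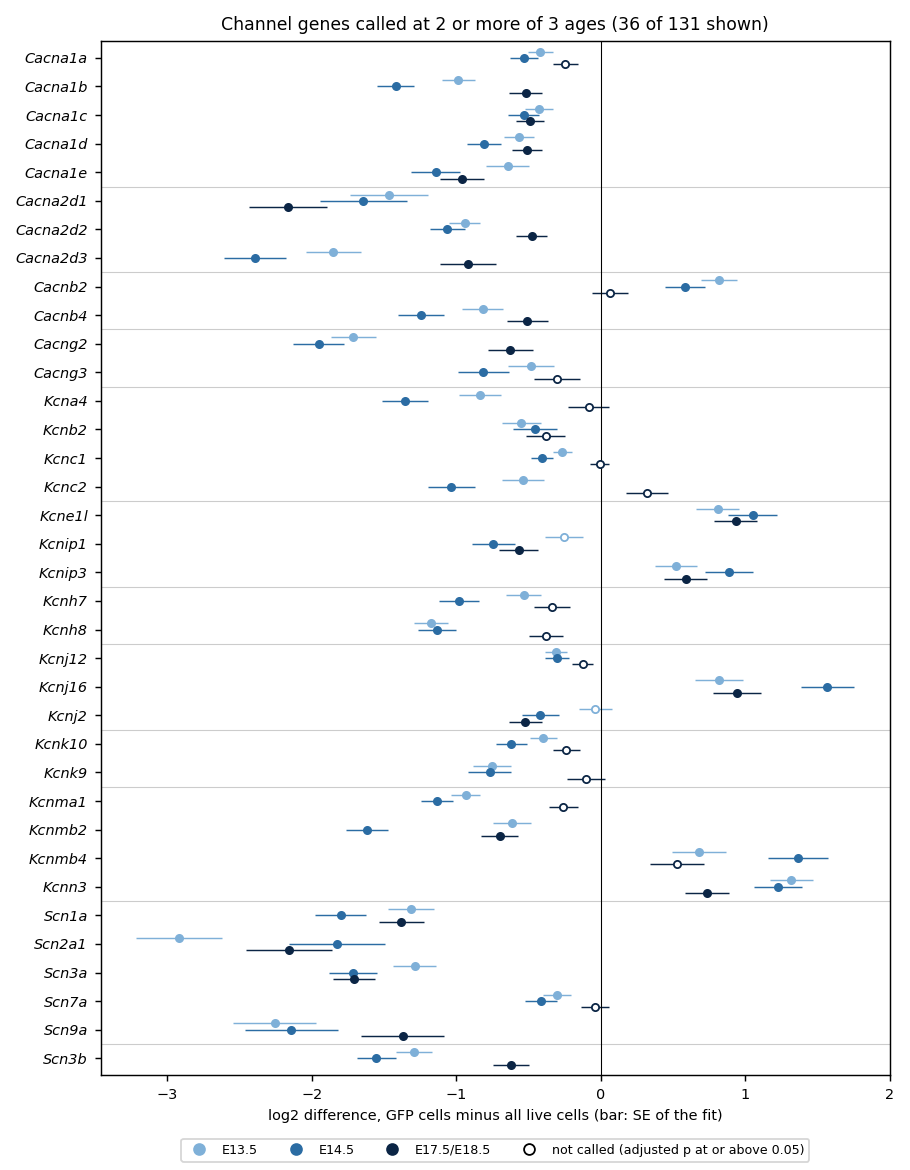
Log2 difference between GFP cells and all live cells (points, with the limma SE as bars) at each age for 36 of the 131 channel genes, each called at 2 or more ages; open points are not called, and grey lines part the channel groups. Most points lie left of 0, and Cacnb2, Kcne1l, Kcnip3, Kcnj16, Kcnmb4 and Kcnn3 lie to the right.

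Among potassium channels the picture differed by group. Of the 17 alpha subunits of Kv1 to Kv4, 1 was higher and 4 were lower at E13.5, none was higher and 4 were lower at E14.5, and 1 was lower late. Kcna4, which carries an A-type current in axons, read 6.73, 7.13 and 6.86 in GFP cells and 7.65, 7.67 and 7.91 in all live cells at E13.5 (-0.84 ± 0.14, adjusted p = 0.000407). It differed by -1.36 ± 0.16 at E14.5 (adjusted p = 8.93e-06), and by -0.08 late (adjusted p = 0.808), when the groups overlapped. Kcnc1, a fast delayed rectifier of interneurons, was lower by 0.27 at E13.5 and by 0.41 at E14.5, with a late difference of -0.01. The E13.5 call of Kcnc1 was lost without GFP replicate 2 (adjusted p = 0.0614). Kcnd3, another A-type alpha subunit, was higher at E13.5 in the GFP cells. It read 8.59, 8.73 and 8.55 against 8.20, 8.11 and 8.27, without overlap (0.43 ± 0.08, adjusted p = 0.000594). Kcnd2 differed by -0.29, 0.09 and 0.00 and gave no call.

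The 10 silent subunit genes, which make no channel alone but modify Kv2 channels, gave no call at any age. Of the 8 Kcnh genes (the EAG, ERG and ELK channels), 4 were lower at E13.5, 5 at E14.5 and none late. Kcnh8 read 7.18, 6.98 and 7.17 in GFP cells and 8.42, 8.25 and 8.20 in all live cells at E13.5 (-1.18 ± 0.12, adjusted p = 1.7e-06), and 7.13, 7.24 and 7.24 against 7.55, 7.46 and 7.73 at the late age (-0.38, adjusted p = 0.0537). Late all-live arrays of Kcnh8 were below those of E13.5, and GFP arrays of the 2 ages overlapped. Kcnh2 (hERG) was lower at E13.5 (-0.34 ± 0.09, adjusted p = 0.0156), a call lost without GFP replicate 1 or all-live replicate 1 (adjusted p from 0.069 to 0.0961). Kcnq3, a subunit of the M current that restrains repetitive firing, differed by -0.12, -0.32 and -0.21 and was not called.

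The genes higher in GFP cells were mostly auxiliary, calcium-activated or inward-rectifier genes. Kcne1l, a single-pass beta subunit also called Kcne5, read 8.91, 8.87 and 9.02 in GFP cells and 8.09, 8.11 and 8.17 in all live cells at E13.5 (0.81 ± 0.15, adjusted p = 0.000841). It differed by 1.05 ± 0.17 at E14.5 (adjusted p = 0.000196), and read 9.64, 9.78 and 9.74 against 8.85, 9.04 and 8.46 late (0.93 ± 0.15, adjusted p = 0.000544). Each Kcne1l comparison was without overlap. Kcnip3 encodes KChIP3, a calcium sensor that binds Kv4 channels and, as DREAM, represses genes. It read 8.24, 8.21 and 8.43 in GFP cells against 7.69, 7.90 and 7.74 at E13.5 (0.52 ± 0.15, adjusted p = 0.0183), and 8.87 and 8.86 against 7.73, 8.002 and 8.20 at E14.5 (0.89 ± 0.16, adjusted p = 0.000719). At the late age it read 9.85, 10.16 and 9.51 against 9.06, 9.45 and 9.24 (0.59 ± 0.15, adjusted p = 0.016). The Kcnip3 groups were apart at each age, but the E13.5 call was lost without GFP replicate 3 or all-live replicate 1 or 3 (adjusted p from 0.0585 to 0.0792), and the late call without GFP replicate 2 or all-live replicate 1 (0.0767 and 0.089). Kcnip1, the KChIP of interneurons, was lower at E14.5 (-0.74 ± 0.15, adjusted p = 0.00146) and late (-0.57 ± 0.13, adjusted p = 0.0104), and the late call was lost without the E18.5 arrays (adjusted p = 0.0906).

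The 12 genes of calcium- or sodium-activated potassium channels had 2 higher and 2 lower members at each age. Kcnn3 encodes SK3, a small-conductance channel opened by calcium alone. It read 9.78, 10.09 and 10.10 in GFP cells and 8.86, 8.36 and 8.80 in all live cells at E13.5, the largest positive difference among the channel genes there (1.32 ± 0.15, adjusted p = 6.74e-06). It read 10.12 and 10.02 against 8.71, 8.87 and 8.95 at E14.5 (1.23 ± 0.17, adjusted p = 4.16e-05), and 10.53, 10.59 and 10.21 against 9.66, 9.99 and 9.48 late (0.73 ± 0.15, adjusted p = 0.00412). Every GFP array of Kcnn3 was above every all-live array of its age.

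The BK channel, opened by calcium and voltage together, divided by subunit. Its pore gene Kcnma1 was lower in GFP cells at E13.5, at 7.43, 7.32 and 7.33 against 8.36, 8.24 and 8.29 (-0.94 ± 0.10, adjusted p = 2.96e-06), and at E14.5 (-1.14 ± 0.11, adjusted p = 1.08e-06), with -0.26 late (adjusted p = 0.122). Its auxiliary gene Kcnmb2, which gives BK channels inactivation, was lower at all ages (-0.62 ± 0.13, -1.62 ± 0.15 and -0.70 ± 0.13, adjusted p = 0.00251, 5.04e-07 and 0.00195). The auxiliary gene Kcnmb4 was higher instead, at 9.41, 9.49 and 9.04 against 8.60, 8.75 and 8.55 at E13.5 (0.68 ± 0.19, adjusted p = 0.0157). At E14.5 it read 9.74 and 10.46 against 8.46, 8.71 and 9.04 (1.37 ± 0.21, adjusted p = 0.000128), and late 9.59, 10.04 and 10.18 against 9.54, 9.38 and 9.32 (0.53, adjusted p = 0.0957). Kcnmb4 groups did not overlap at any age, but the E13.5 call was lost without GFP replicate 1 or 2 or all-live replicate 1 or 3 (adjusted p from 0.0515 to 0.0737). The late members called in this group were Kcnn3, Kcnmb2, Kcnn2 (0.46 ± 0.12, adjusted p = 0.0212) and the sodium-activated channel gene Kcnt2 (-0.80 ± 0.22, adjusted p = 0.0329). The Kcnn2 call was lost without GFP replicate 3 or all-live replicate 1 (adjusted p = 0.0806 and 0.0995), and that of Kcnt2 without GFP replicate 1 or 3 or all-live replicate 3 (from 0.0798 to 0.167).

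Of the 13 inward rectifier genes, 1 was higher at each age and 1, 4 and 1 were lower. The higher one was Kcnj16, which encodes Kir5.1, a subunit that forms channels with Kir4.1 (Kcnj10) in astrocytes. It read 7.41, 7.51 and 7.21 in GFP cells and 6.57, 6.41 and 6.69 in all live cells at E13.5 (0.82 ± 0.17, adjusted p = 0.00177). At E14.5 it read 8.78 and 8.36 against 6.86, 7.09 and 7.04 (1.57 ± 0.19, adjusted p = 8.93e-06). Late, it read 10.10, 9.99 and 9.97 against 9.36, 9.30 and 8.57 (0.94 ± 0.17, adjusted p = 0.00121), and the E18.5 array was the lowest of all live cells. Each Kcnj16 comparison was without overlap, and both sorts were higher at each later age. The GIRK genes Kcnj3 and Kcnj6, whose channels G proteins open, were lower at E14.5 by 0.70 and 0.49 (adjusted p = 0.000226 and 0.000849). Kcnj2 (Kir2.1) was lower late (-0.52 ± 0.11, adjusted p = 0.00665), and the call was lost without the E18.5 arrays (adjusted p = 0.106). Kcnj2 was also lower at E14.5 (-0.42 ± 0.13, adjusted p = 0.029), a call lost without either GFP array or all-live replicate 1 or 3 (adjusted p from 0.0774 to 0.198). The microglial, oligodendrocyte-lineage, endothelial and mural markers given above were lower in GFP cells late, and their part in the Kcnj2 value was not tested.

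Of the 14 two-pore channel genes, whose products carry background potassium current, Kcnk9 (TASK-3) and Kcnk10 (TREK-2) were lower at E13.5 and E14.5. Kcnk9 differed by -0.75 ± 0.13 and -0.77 ± 0.15 (adjusted p = 0.000484 and 0.00101), and Kcnk10 by -0.40 ± 0.10 and -0.62 ± 0.11 (adjusted p = 0.00647 and 0.0004). Kcnk2 (TREK-1) was higher at E13.5, at 9.10, 8.92 and 8.50 against 8.42, 8.38 and 8.49 (0.42 ± 0.12, adjusted p = 0.0238). The third GFP array of Kcnk2 lay within 0.1 of the highest all-live array, and the call was lost without GFP replicate 1 or 2 or all-live replicate 1 or 2 (adjusted p from 0.0684 to 0.144). Kcnk1 (TWIK-1), an astrocyte channel in the adult mouse, differed by -0.03, -0.27 and -0.07 and was not called, and none of the 14 was called late.

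**Figure D4:**
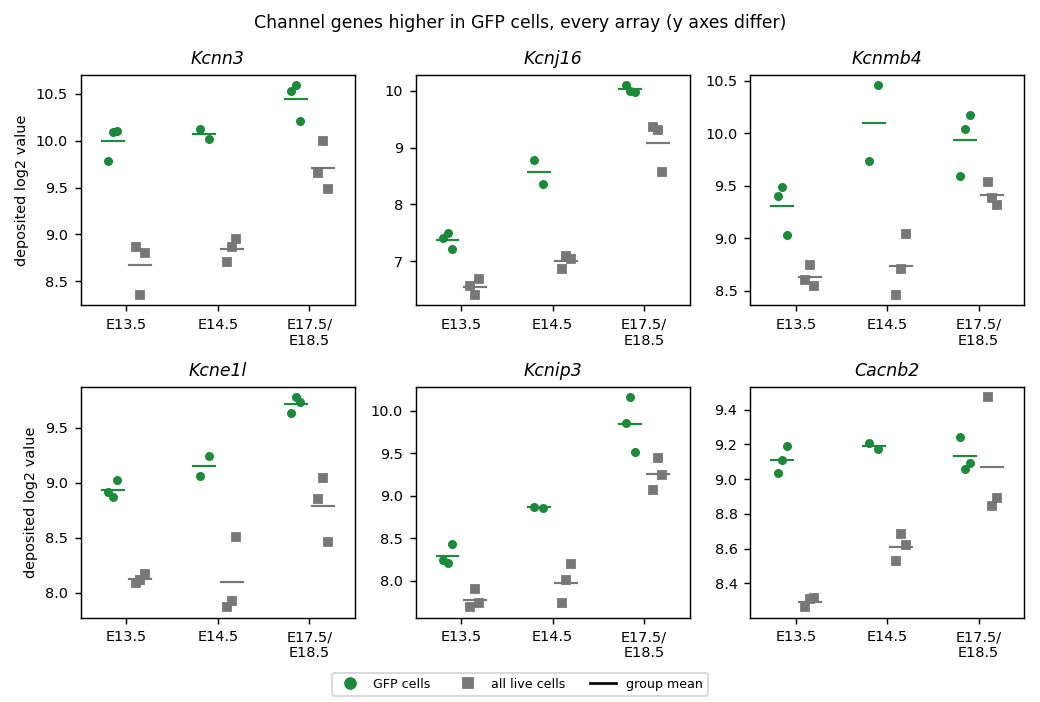
Deposited log2 value of each array (points) and the group mean (lines) for 6 channel genes that were higher in GFP cells (green circles) than in all live cells (grey squares) at 2 or more ages; the y axes differ and do not start at 0. Green points lie above grey points at every age except for Cacnb2 at the late age, and Kcnj16 is higher in both sorts at each later age.

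The change with age was tested within each sort. In GFP cells, 14 members were higher and 6 lower at the late age than at E13.5 (10.7% and 4.58%), where 7.3% of all genes were higher and 8.93% lower. Over all genes 45.0% of the calls in this comparison were higher, and 31.7% with every array shifted to the same median; the members' counts were then 11 higher and 6 lower. Kcnj16 was higher by 2.64 ± 0.17 (adjusted p = 1.09e-08), 6.25-fold on the linear scale. Kcnn2 (SK2) rose by 1.65 ± 0.12, from 7.32, 7.06 and 7.23 to 8.67, 8.73 and 9.17 (adjusted p = 5.16e-08). Kcnd2 (Kv4.2) rose by 1.65 ± 0.11, from 8.63, 8.85 and 8.57 to 10.40, 10.36 and 10.24 (adjusted p = 2.54e-08). Its Kv4 partner Kcnip3 rose by 1.54 ± 0.15 (adjusted p = 1.23e-06). For Kcnj16, Kcnn2, Kcnd2 and Kcnip3, every late GFP array was above every E13.5 array.

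Smaller rises in GFP cells were those of Kcnma1 (0.88 ± 0.10, adjusted p = 8.06e-06), Kcne1l (0.78 ± 0.15, adjusted p = 0.00149), the sodium-activated channel gene Kcnt1 (0.64 ± 0.11, adjusted p = 0.000552) and Kcna2 (0.63 ± 0.10, adjusted p = 0.000469). The largest fall was that of Cacna2d1, by 3.19 ± 0.27 (adjusted p = 3.49e-07). The late GFP arrays of Cacna2d1 lay below the median of all array values, and with no background level in the files this size may understate the fall. Scn3a fell by 1.54 ± 0.15 (adjusted p = 1.42e-06). Cacnb3 fell by 0.44 ± 0.09 (adjusted p = 0.00295). Scn1a fell by 0.54 ± 0.16 (adjusted p = 0.0266), a call lost without GFP replicate 2 or 3 at E13.5 or GFP replicate 1 or 3 at the late age (adjusted p from 0.0693 to 0.139). Over the same interval 14 of 15 astrocyte markers rose and 9 of 14 neuronal markers fell in GFP cells, and their part in these changes was not tested.

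Between E13.5 and E14.5, 3 members were higher in GFP cells and none was lower (of all genes, 0.914% were called higher and 1.5% in either direction). They were Kcnj16 (1.19 ± 0.19, adjusted p = 0.00291), Kcnd2 (0.86 ± 0.12, adjusted p = 0.00164) and Kcnn2 (0.58 ± 0.13, adjusted p = 0.0364). The Kcnj16 call was lost without GFP replicate 1 of E14.5 (0.98, adjusted p = 0.0787), and that of Kcnn2 in 7 of 17 fits that left out 1 array. Scn2a1 differed by 1.36 ± 0.33 without passing (adjusted p = 0.0524). Between E14.5 and the late age, 9 members were higher and 3 lower, where 2.96% of all genes were higher and 3.28% lower, 6.24% in all. Kcnj16 rose by 1.45 ± 0.19 (adjusted p = 0.000115) and Kcnn2 by 1.07 ± 0.13 (adjusted p = 8.27e-05). Cacna2d1 fell by 2.64 ± 0.30 (adjusted p = 3.93e-05). These 3 age comparisons share arrays, so their values are given side by side only.

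In all live cells, 15 members were higher and 16 lower at the late age than at E13.5 (11.5% and 12.2%), where 10.2% and 9.98% of all genes were, or 20.2% in either direction. Kcnj16 rose by 2.52 ± 0.17 (adjusted p = 1.03e-08), Kcnip3 by 1.48 ± 0.15 (adjusted p = 1.23e-06), Kcnd2 by 1.35 ± 0.11 (adjusted p = 1.38e-07) and Kcnn2 by 1.07 ± 0.12 (adjusted p = 4.16e-06). Cacna2d1 fell by 2.49 ± 0.27 (adjusted p = 3.15e-06), Scn9a by 1.25 ± 0.29 (adjusted p = 0.00434) and Cacng2 by 1.22 ± 0.16 (adjusted p = 2.16e-05). Between these ages, all 15 astrocyte, 11 of 12 oligodendrocyte-lineage, 11 of 12 microglial, 8 of 10 endothelial and 7 of 10 mural markers rose in all live cells, while 10 of 14 neuronal markers and 1 microglial marker fell; their part in the channel changes was not tested. Of the members higher late, 9 were called in both sorts, which is 64.3% of those in GFP cells and 60.0% of those in all live cells. Of the members lower late, 5 were called in both, or 83.3% and 31.2%. Over all genes, the shares called in both were 55.3% and 39.6% for rises and 51.2% and 45.8% for falls. The 2 sorts have separate arrays, although all live cells contain the GFP cells.

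For 7 members the late change relative to E13.5 differed between the sorts, or 5.34% of the 131 where 4.59% of all genes were called. It was more positive in GFP cells for 6 (1.6% of all genes) and more negative for 1 (2.99% of all genes). Cacng2 changed by -0.13 in GFP cells and by -1.22 in all live cells, a difference of 1.09 ± 0.22 (adjusted p = 0.0083). Kcnh8 changed by 0.09 and -0.71, a difference of 0.80 ± 0.17 (adjusted p = 0.00911). Kcnma1 changed by 0.88 and 0.20, a difference of 0.68 ± 0.14 (adjusted p = 0.00853). Cacnb2 changed by 0.02 and 0.77, a difference of -0.75 ± 0.17 (adjusted p = 0.018). For Kcnma1 the rise was in the GFP cells, while Cacng2 and Kcnh8 fell and Cacnb2 rose in all live cells. Kcnc2 (0.86 ± 0.21, adjusted p = 0.0231), Kcna4 (0.75 ± 0.20, adjusted p = 0.0431) and Scn3b (0.67 ± 0.17, adjusted p = 0.0335) were called as well. These 3 calls were lost in 6, 11 and 8 of the 17 fits that left out 1 array, and 4 members were called in place of 7 without all-live replicate 3 of E13.5.

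**Figure D5:**
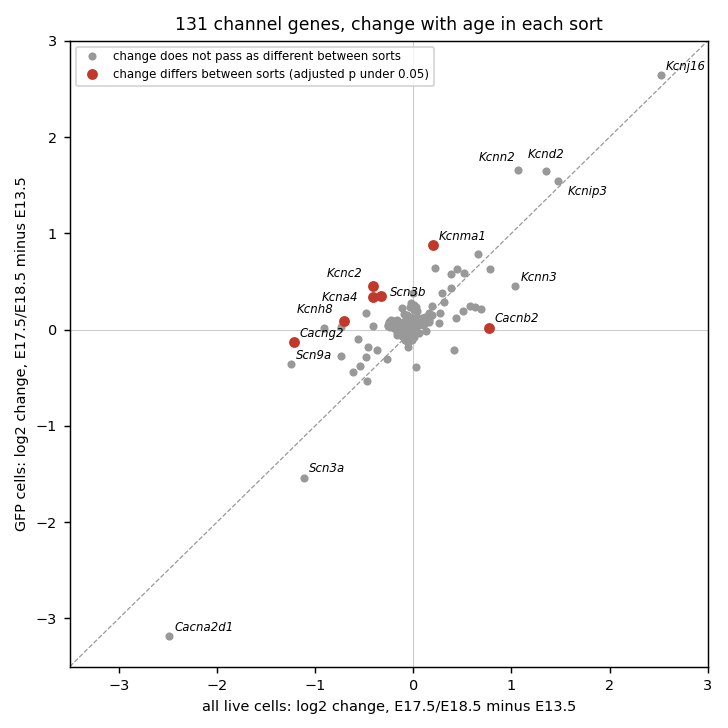
Log2 change, late (E17.5 and E18.5) minus E13.5, of each of the 131 channel genes, in all live cells (x axis) and in GFP cells (y axis); the dashed line marks equal change. Red points are the 7 genes whose change differed between the sorts, and Kcnj16, Kcnip3, Kcnd2 and Kcnn2 (upper right) and Cacna2d1 and Scn3a (lower left) changed the same way in both.

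Genes whose products work beside these channels were counted from fixed lists. Of 12 measured genes of the axon initial segment and node of Ranvier, where sodium channels and Kv1 channels are anchored, 10 were lower in GFP cells at E13.5 and at E14.5, and 7 were lower and 1 higher late. Ank3 (ankyrin G, the anchor of sodium channels) differed by -1.56 ± 0.10, -1.84 ± 0.11 and -1.53 ± 0.10 (adjusted p = 1.29e-08, 1.52e-08 and 3.99e-08). Of 13 pump and transporter genes, 3 were higher and 7 lower at both early ages, and 2 were higher and 5 lower late. Of 13 potassium channel partner genes, 1 was higher at each age and 4, 5 and 3 were lower. The related Kv4 partners went opposite ways, with Dpp6 at 0.59, 0.56 and 0.31 and Dpp10 at -1.13, -1.36 and -1.10, each called at every age. Of 19 sodium, calcium and cation channel partner genes, 1 was higher at each age and 4, 5 and 4 were lower.

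The authors' deposited coexpression table, built on the same 17 arrays and so not independent of the values above, placed 61 of the 131 members (46.6%) in a module, where 36.8% of all its rows had one. In that authors' deposited table, 31 members (23.7%) were in the blue module, which held 5.18% of all rows, and 11 (8.4%) in the purple module, which held 1.8%. The blue members included Scn2a1, Scn3a, Scn9a, Scn3b, the 3 alpha2delta genes and Cacng2, and their correlation with the module profile ran from 0.590 to 0.986 in the authors' deposited table. The yellow module held 7 members, among them Kcnj16, Kcnip3 and Kcnn2, and the turquoise module held Kcnn3, Kcne1l and Kcnmb4, per the authors' deposited table. The authors' deposited comparison tables listed 21 members at E13.5, 5 with a fold above 1 and 16 below 1. They listed 11 at E14.5 (1 and 10) and 9 late (2 and 7). Among the listed members the authors' adjusted p (limma, per their notes) reached 0.104 at E13.5 and 0.140 late. At E14.5 it ran from 0.139 to 0.148, so none of the 11 met the threshold of the calls above. A listing is therefore not a call as used here, and the counts were not set against all listed genes. Some of the authors' E14.5 folds were less than 2-fold where the log2 difference here was beyond 1. Cacna1b had a fold of 0.532 against -1.42 here, and Kcnmb4 had 1.84 against 1.37. Whether the authors' E14.5 folds include the mislabeled array left out here was not tested.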

How the data were processed

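The authors deposited log2 expression values for 35556 probe sets on 18 arrays; per the submitters' processing notes they used oligo, RMA and limma with build mm9, in versions not given in the sources used here. Per the labels' protocols, TRIzol-extracted, DNase-treated RNA was amplified and biotin labelled. The authors' deposited comparison tables give a linear fold, a moderated t score and p-values, and their coexpression table gives a score per gene and module, its correlation with the module profile (kME), with p-values. Labels conflict on the comparison samples (all live cells in the titles, whole cord by cell type, GFP-negative in the treatment text), and the titles were followed. There were 6 value columns with no matching sample, which were not used.

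Probe sets were named by matching values: 1875 and 552 genes of the comparison tables within 1e-08, and 23890 rows of the module table through their recomputed kME, of which 135 matched several probe sets. For 26 genes with several rows the brightest was kept, leaving 23861. Group means of 17 arrays were fitted with limma 3.58.1 in R 4.3.3 (lmFit, eBayes) and p-values adjusted by Benjamini-Hochberg over all genes, after a test on simulated data. The number of arrays limits the precision. Adjusted p-values in the text are limma's.

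The members and gene lists were chosen with earlier results of these data known. Genes were named by rule: the 12 largest rises and 12 largest falls called per comparison, all members whose change with age differed between the sorts, and a fixed list; members of channel groups with 3 or fewer calls could be named too (Scn2b, Cacna2d4). Kcnj3, Kcnj6, Scn4a, Scn10a and Scn11a fall outside the rule and were named after their values were seen. Alternatives were 2 other scalings, no dim genes, another spread model, only the groups compared, averaged probe sets, a replicate block, no E18.5 arrays and each array left out. Promoter sequences are RefSeq's on GRCm38.p6. A few members and list genes are not reported here by name; they are part of the counts.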

Additional observations from a re-analysis of the deposited data

Results flagged for a closer look

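For 7 channel genes the difference between GFP cells and all live cells was not the same at the late age as at E13.5, by limma's test of that change over all genes. The log2 difference moved up by 1.09 for Cacng2, 0.86 for Kcnc2, 0.80 for Kcnh8, 0.75 for Kcna4, 0.68 for Kcnma1 and 0.67 for Scn3b, each of which was lower in GFP cells at E13.5, and it moved by -0.75 for Cacnb2, which was higher. Each moved towards 0, and Kcnc2 passed it, from -0.54 at E13.5 to 0.32 late, where it was not called (adjusted p = 0.216). Their cause was not tested.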

How the results depend on the processing

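Among the genes named by rule, no difference called in the main fit or in an alternative changed direction between them. Changes of sign without a call were not counted. At the late age 25 members were called in the main fit, 16 with only the compared groups in the fit and 16 without the E18.5 arrays. Each of these counts is over all 131 members. The 3 called between E13.5 and E14.5 in GFP cells became 5 with only the compared groups, and the 7 whose change with age differed between the sorts became 11 without dim genes; the cause was not tested. Leaving out 1 array gave 31 to 42 members for GFP against all live cells at E13.5, 39 to 48 at E14.5 and 20 to 26 late. It gave 14 to 23 for GFP cells late against E13.5, 2 to 5 for E14.5 against E13.5, 8 to 12 for late against E14.5, 28 to 33 for all live cells late against E13.5, and 4 to 8 for the difference between the sorts. In that order of comparisons, 29 of 42, 35 of 47, 14 of 25, 11 of 20, 1 of 3, 6 of 12, 25 of 31 and 4 of 7 members were called under every alternative. For GFP cells late against E14.5, 47.4% of all genes' calls were higher, and 33.9% with every array shifted to the same median. Arrays with the same replicate number deviated from their group means with correlations from -0.081 to 0.121, so the numbers were not taken as pairs. A replicate block gave 37, 40, 23, 22, 4, 10, 34 and 7 members. The files give no background signal or detection call, so a low value, as in the 57 dim members, cannot be told from background.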
